A study of Neurospora crassa with 112 samples.

Results

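Filamentous fungi decide at fusion whether 2 individuals may share a cytoplasm. In *Neurospora crassa*, fusion between colonies that differ at a heterokaryon incompatibility (*het*) locus is followed by compartmentation and death of the fused cell, and fusion between germinated spores of unlike genotype can be followed by germling death. The genes involved often lie in neighbouring pairs whose alleles are inherited together, and many encode proteins with a HET domain. The 8 genes described here were listed by name for such roles, out of 9733 genes in the table. These genes were chosen with earlier results of these data known. By role they comprise *het-c* (NCU03493), a cell surface protein, and its neighbour *pin-c* (NCU03494), a HET domain protein that acts against unlike *het-c* alleles. They further comprise *het-6* (NCU03533), a HET domain protein, and NCU07887, which was listed under the name of another gene, as given below. The pair *sec-9* (NCU09244), a SNARE protein of membrane fusion, and *plp-1* (NCU09243), a patatin-like phospholipase with a nucleotide-binding domain, acts in germling death. The last members are *vib-1* (NCU03725), a p53-like transcription factor needed for cell death at several *het* loci, and *tol* (NCU04453), a HET domain gene needed for mating-type incompatibility.

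The list gave NCU07887 as *un-24*, the large subunit of ribonucleotide reductase and the partner of *het-6*. The RefSeq annotation of assembly NC12 instead gives the symbol *un-24* to NCU03539, which lies on the chromosome of *het-6* with 5 genes between them, and gives no symbol to NCU07887, which lies on another chromosome. NCU07887 is therefore reported by its identifier, and NCU03539 is described beside the 8 members as *un-24*. Genes *het-c* and *pin-c*, and *sec-9* and *plp-1*, are direct neighbours, with 0 annotated genes between them.

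RNA came from mycelia of 112 strains, labelled as wild Louisiana isolates and each grown for 16 h. Strain 2489 among them is the laboratory strain. The labels list 1 library of polyadenylated RNA per strain name and no second culture of any strain. By name, 72 strains belong to the JW series, 10 to the D series and 30 carry a stock number of the Fungal Genetics Stock Center (FGSC). In 4 pairs of a D and an FGSC column, 87.1 to 89.5% of the values above 0 were identical, all 9 genes included, so that each pair was averaged and counted as 1 library. This left 72 JW and 36 D and FGSC libraries. Totals recovered from the table were 8366944 to 29804014 reads in JW and 4174767 to 30748165 reads in D and FGSC. The summed level of 3 conidial markers (*con-6*, *con-10* and *eas*) was 74.0 to 21215 RPKM in JW and 179 to 121989 RPKM in D and FGSC, and none of the 3 was at 0 in any library. Fewer cells of a type and less RNA per cell cannot be told apart in such cultures. Levels are RPKM, that is, reads divided by gene length and by library total, and differences are on the scale of log2(RPKM + 1). Reads of an allele that differs from the reference sequence may fail to align, so for every gene below, less transcript and fewer aligned reads of a diverged allele cannot be told apart.

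Across strains, the 8 members had very different transcript levels, and their patterns fell into 3 kinds. Genes *het-6*, *sec-9* and *plp-1* divided the strains into a low and a high set. Gene *pin-c* ran from no reads to a few RPKM without a clear break. Genes *het-c*, NCU07887, *vib-1* and *tol* varied continuously, with SDs of 0.31 to 0.44 log2 units. By median level the order was NCU07887 (153 RPKM), *vib-1* (134), *un-24* (65.6), *plp-1* (31.4), *het-c* (19.4), *tol* (3.77), *het-6* (3.55), *pin-c* (0.296) and *sec-9* (0.0464). The range over libraries of each gene overlapped that of its neighbours in this order, except between *het-c* and *tol*, whose values did not meet. The SD over all libraries was 1.59 log2 units for *het-6*, 1.55 for *sec-9* and 1.26 for *plp-1*, against a median of 0.38 over the 7985 genes that averaged 1 RPKM or more. The remaining genes that reached this mean had SDs of 0.31 (NCU07887) to 0.44 (*het-c*). Of the 8 members, 7 reached it and *pin-c*, with a mean of 0.846 RPKM, did not.

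**Figure D1:**
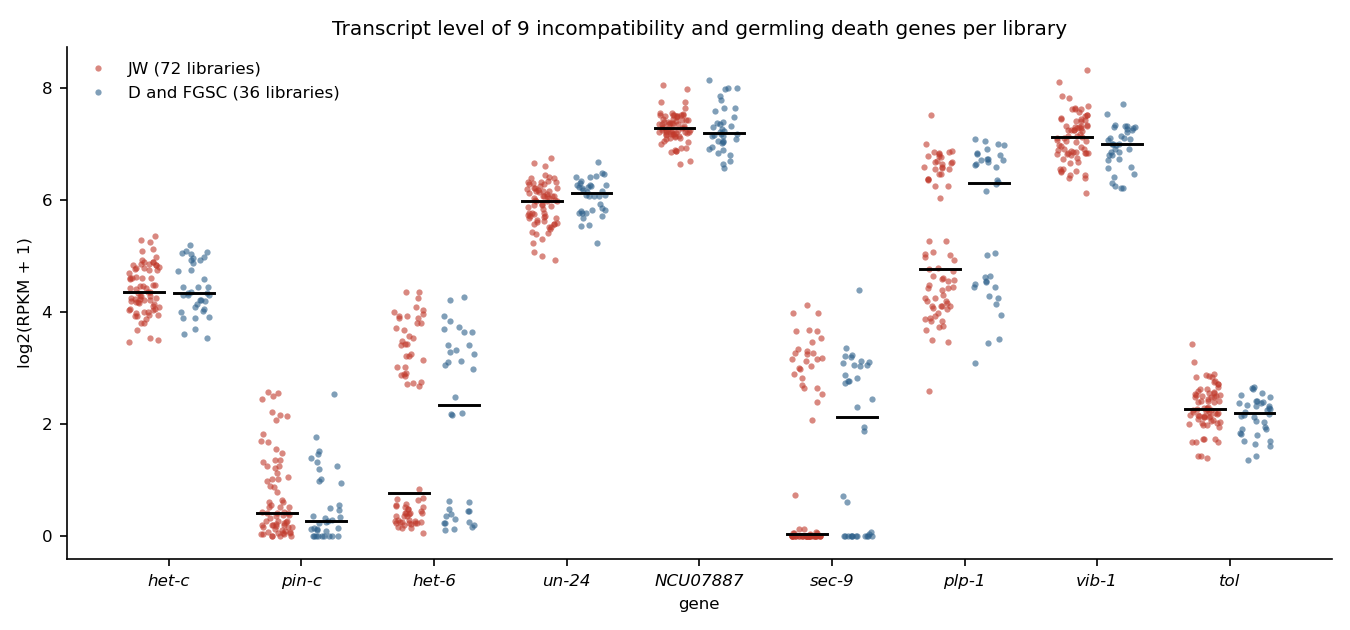
Transcript level of the 8 members and un-24 in log2(RPKM + 1), 1 point per library, with 72 JW libraries on the left and 36 D and FGSC libraries on the right of each gene and the median as a black bar. In het-6, sec-9 and plp-1 the points form a lower and an upper set in both strain series, and the remaining genes form 1 cloud each.

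To find levels that could mark alleles, the libraries were ordered by log2(RPKM + 1) for each gene and the widest step between neighbouring libraries was taken, with at least 5 libraries on each side. A step of at least 1 log2 unit was called a separation. Of the 8 members, 2 had one, *het-6* and *sec-9*. Over all 7985 genes of at least 1 RPKM the share was 0.589% (47 genes), and the median widest step was 0.10 log2 units. At a step of at least 0.5, *plp-1* joined them, giving 3 members against 2.63% of all genes. The members were chosen with earlier results of these data known, so these counts are a description. The widest steps of *het-c*, *pin-c*, *un-24*, NCU07887, *vib-1* and *tol* were 0.09 to 0.25 log2 units. The sets so formed are read from the values themselves and are not groups of the study, so no test was made between them.

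Gene *het-6* ranged from 0.0375 to 19.6 RPKM. In JW strains the lowest, median and highest values were 0.0375, 0.698 and 19.6 RPKM, and in D and FGSC strains 0.0737, 4.07 and 18.2 RPKM. No library fell between 0.789 and 3.46 RPKM, a step of 1.32 log2 units that was wider than in 99.7% of the genes tested. The upper set held 56 libraries with a median of 9.72 RPKM and the lower set 52 libraries with a median of 0.276 RPKM. Both sets occurred in both strain series, with 35 of 72 JW and 21 of 36 D and FGSC libraries in the upper set. The lower set was not at 0, since each of its libraries had 1 to 33 *het-6* reads, compared with 39 to 956 reads in the upper set. Library totals of the 2 sets overlapped, at 4174767 to 29034875 reads in the upper and 5336682 to 30748165 reads in the lower.

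The gene next to *het-6*, NCU03534, followed it closely. NCU03534 was at 0 in 1 of the 56 libraries of the upper *het-6* set and in 50 of the 52 libraries of the lower set. Its highest value was 24.2 RPKM in the upper set and 0.114 RPKM in the lower set. Among all 7984 other genes, NCU03534 had the highest correlation with *het-6* over all libraries (r = 0.74) and *un-24* the next (r = 0.65). These coefficients include the step between the 2 sets, and are given as a description. The 4 genes NCU03535 to NCU03538, which stand between NCU03534 and *un-24*, had r of -0.16 to 0.22 with *het-6*.

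Gene *un-24* differed from *het-6* in degree, since it was well expressed in all libraries, at 29.6 to 107 RPKM. In the upper *het-6* set *un-24* was at 50.3 to 107 RPKM with a median of 73.6, and in the lower set at 29.6 to 79.0 RPKM with a median of 52.9. The ranges overlapped, and 68 libraries lay in the part shared by both, 39 from the upper and 29 from the lower set. Above this part lay 17 libraries, and below it 23. The same order was found within each series. In JW the *un-24* medians were 71.7 RPKM in the upper and 49.99 RPKM in the lower *het-6* set, and in D and FGSC they were 75.8 and 55.3 RPKM. Conversely, *het-6* was the gene most like *un-24* out of 7984 genes. Within the sets the relation was weak, with Pearson's r = 0.33 and Spearman's rho = 0.26 in the upper set (permutation p = 0.0124 and 0.0573, adjusted p = 0.0382 and 0.141). In the lower set r was 0.21 and rho 0.16 (permutation p = 0.133 and 0.25, adjusted p = 0.231 and 0.345). These values are adjusted over the 29 relations between genes computed here. By r with *het-6* in the upper set, *un-24* ranked 1243 of 7984 genes, and 18.5% of all genes had an r as far from 0. By r with *un-24* in that set, *het-6* ranked 1739 of 7984, with 27.6% of genes as far from 0. In the upper set r was 0.30 when the 2 libraries farthest from the median were left out (adjusted p = 0.0715), 0.33 in JW alone (adjusted p = 0.148) and 0.41 in D and FGSC alone (adjusted p = 0.186), and 0.17 after median centring of the libraries (adjusted p = 0.435). With residuals from the log2 library total it was higher, with r = 0.44 and rho = 0.41 (adjusted p = 0.00331 and 0.00833), and with residuals fitted within each set r was 0.39 and rho 0.36 (adjusted over 8 relations, p = 0.011 and 0.0262). NCU07887, over all libraries, ranked 5970 of 7984 genes by r with *het-6* (r = -0.078). Within the upper *het-6* set its r with *het-6* was 0.29 (adjusted p = 0.0735), close to that of *un-24*. Its r with *un-24* over all libraries was 0.19, and with residuals from the log2 total it was 0.32 with rho = 0.27 (adjusted p = 0.00331 and 0.0135).

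Gene *sec-9* had no reads in many strains and was well covered in others. In JW strains the lowest, median and highest values were 0, 0.0168 and 16.6 RPKM, and in D and FGSC strains 0, 3.41 and 20.1 RPKM. The upper set held 48 libraries at 2.67 to 20.1 RPKM, each with 78 to 1540 *sec-9* reads. The lower set held 60 libraries at no more than 0.653 RPKM, of which 47 were listed at 0. For a library at 0, a count of 3 reads is the limit that counting error allows. The upper set took in 28 of 72 JW and 20 of 36 D and FGSC libraries. The step of 1.15 log2 units between the sets was wider than in 99.5% of the genes tested. A value of 0 says that no read was assigned to *sec-9*, which serves secretion in hyphae, and not that the gene is missing.

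Its partner *plp-1* was transcribed in all libraries, with 5.01, 26.3 and 183 RPKM as lowest, median and highest in JW strains and 7.47, 78.1 and 135 RPKM in D and FGSC strains. The 48 libraries of the upper *sec-9* set had *plp-1* at 64.8 to 183 RPKM with a median of 102. The 60 libraries of the lower *sec-9* set had it at 5.01 to 37.6 RPKM with a median of 18.6, so that the 2 ranges did not overlap. The 2 genes thus placed every one of the 72 JW and 36 D and FGSC libraries on the same side. Each was among the closest 2 of 7984 genes to the other (r = 0.92), and *sec-9* was still closer to its other neighbour, NCU09245 (r = 0.96). Within the sets the relation of *sec-9* with *plp-1* did not pass the adjusted threshold, with r = 0.20 and rho = 0.26 in the upper set (permutation p = 0.179 and 0.0706, adjusted p = 0.274 and 0.146). In the lower set r was -0.059 and rho -0.029 (permutation p = 0.649 and 0.827, adjusted p = 0.752 and 0.888). There 47 of the 60 libraries had *sec-9* at 0, so these values cannot show whether the 2 genes are related within the lower set. With residuals from the log2 total fitted within the upper set, r was 0.23 and rho 0.34 (adjusted over 8 relations, p = 0.144 and 0.0477), so that rho then passed.

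NCU09245 was at the same side as *sec-9* in 105 libraries. The 3 others, JW160, 4483 and 4451, also held the highest *sec-9* values below the step. Strain JW160 had 36 *sec-9* reads at 0.653 RPKM, 4483 had 22 reads at 0.629 RPKM and 4451 had 17 reads at 0.523 RPKM, where the next library of the lower set had 0.0922 RPKM. In these strains NCU09245 was at 0.949, 0.873 and 1.54 RPKM, and *plp-1* was at 21.3, 10.5 and 20.9 RPKM, within the lower set. Their NCU09245 values lay within the range of the upper *sec-9* set, 0.737 to 38.8 RPKM, while the other libraries of the lower set had no more than 0.124 RPKM.

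**Figure D2:**
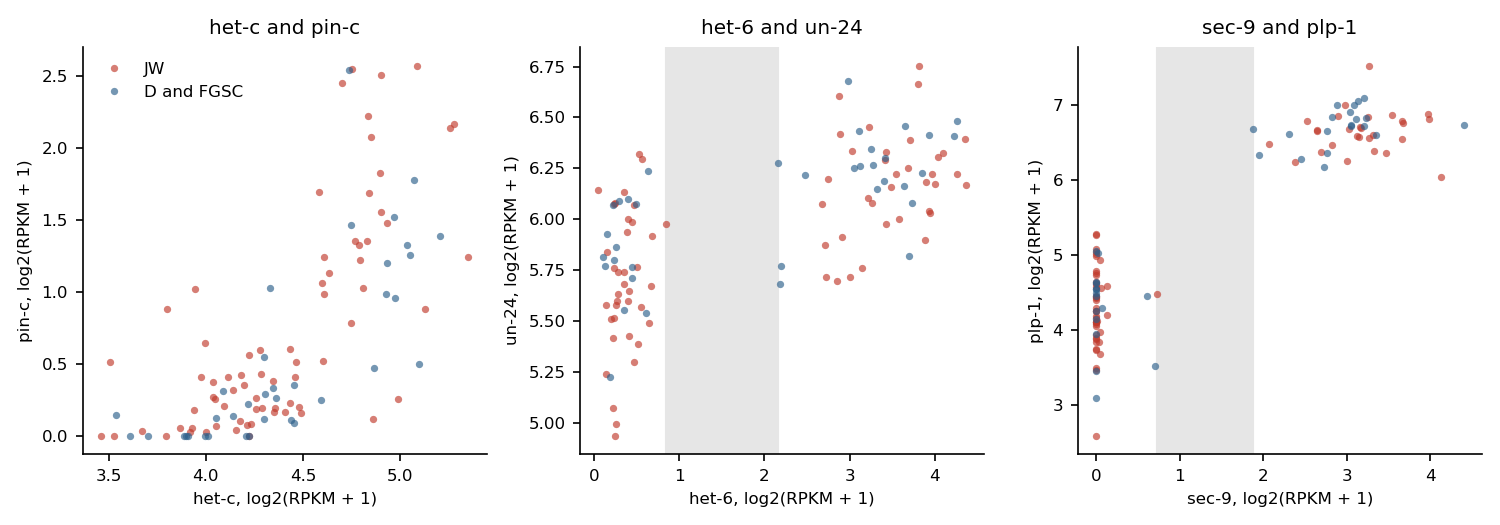
Levels of the pairs het-c and pin-c, het-6 and un-24, and sec-9 and plp-1 in log2(RPKM + 1), 1 point per library. Between het-6 and un-24 lie 5 genes. JW is in red and D and FGSC in blue, with the widest step of het-6 and of sec-9 shaded. The plp-1 ranges of the 2 sec-9 sets do not overlap, the un-24 ranges of the 2 het-6 sets overlap in part, and pin-c rises with het-c without a step.

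The 3 loci were compared by the correlation of each anchor gene with the 8 genes on either side. Around *het-c* only *pin-c* exceeded r of 0.5, around *het-6* NCU03534 and *un-24* did, and around *sec-9* NCU09245 and *plp-1* did. The sets of *het-6* and *sec-9* were cross-counted. The upper sets of *het-6* and *sec-9* shared 29 libraries and the lower sets 33, while 19 libraries were low at *het-6* and high at *sec-9* and 27 the reverse. The 2 genes thus agreed in 62 libraries. Paired with each of the 46 other genes that had a separation, *sec-9* agreed in 45 to 75 libraries, with a median of 59.5, and *het-6*, paired likewise, did so in 48 to 68 libraries, with a median of 54.5.

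**Figure D3:**
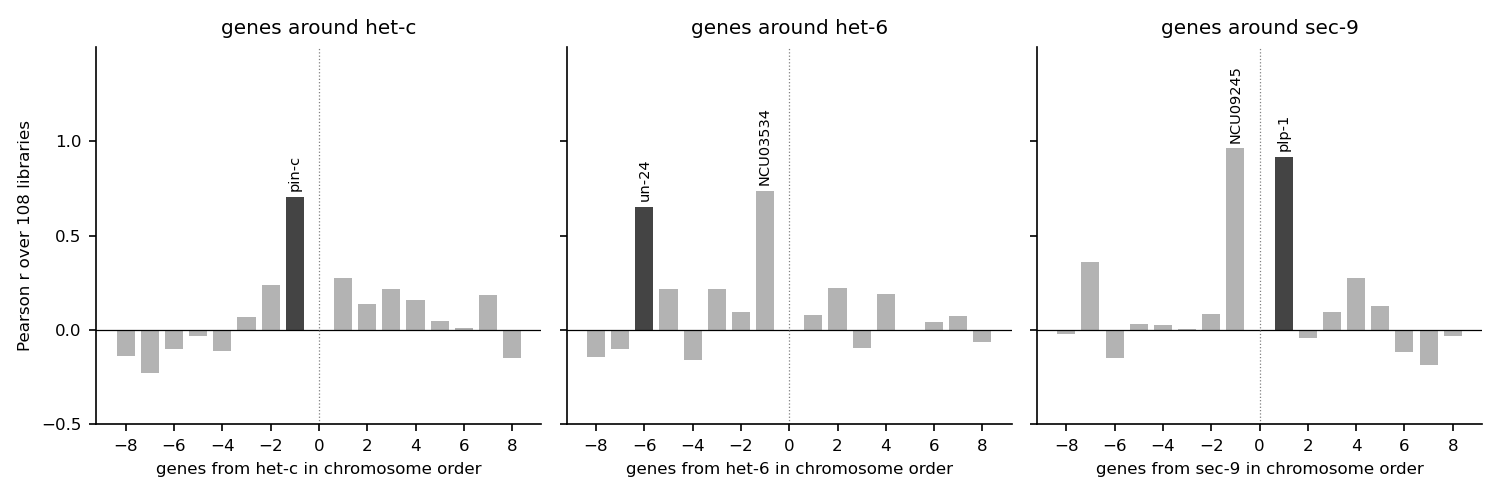
Pearson's r over all libraries (72 JW, 36 D and FGSC) between het-c, het-6 or sec-9 and each of the 8 genes on either side in chromosome order, with members and un-24 in dark bars. High bars are limited to 1 gene at het-c (pin-c) and 2 genes each at het-6 (NCU03534, un-24) and sec-9 (NCU09245, plp-1).

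The first pair, *het-c* and *pin-c*, behaved differently, with a graded relation in place of sets. Gene *het-c* had 10.002, 19.5 and 39.9 RPKM as lowest, median and highest in JW strains and 10.6, 19.2 and 35.9 RPKM in D and FGSC strains. Gene *pin-c* had 0, 0.331 and 4.94 RPKM in JW strains and 0, 0.208 and 4.81 RPKM in D and FGSC strains. It was weakly expressed throughout, with 13 libraries at 0 reads and 30 at no more than 3 reads. In the 13 libraries with *pin-c* at 0, *het-c* was at 10.002 to 17.7 RPKM. In the 32 libraries with *pin-c* of at least 1 RPKM it was at 14.4 to 39.9 RPKM, and in the 9 libraries with *pin-c* of at least 3 RPKM at 25.1 to 37.8 RPKM. The correlation over all libraries was r = 0.71 and rho = 0.74 (permutation p = 1e-05 for both, the smallest that 100000 permutations can give, adjusted p = 0.000145). It was 0.71 in JW alone, 0.74 in D and FGSC alone, and 0.70 when the 2 libraries farthest from the median were left out. Of 7985 genes *het-c* had the highest r with *pin-c*, and the next gene, *gh35-1*, had 0.45. Library totals overlapped between the 13 libraries at 0 (4174767 to 27557928 reads) and the 32 with at least 1 RPKM (5132423 to 30748165 reads).

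The regulator *vib-1* was among the more highly expressed genes, with a mean above that of 88.0% of the table. It had 68.9, 139 and 319 RPKM as lowest, median and highest in JW strains and 73.2, 127 and 209 RPKM in D and FGSC strains. Its level was related to that of *het-6* within the upper *het-6* set. Across these 56 libraries r was 0.69 and rho 0.68 (permutation p = 1e-05 for both, adjusted p = 0.000145). Out of 7984 genes, *vib-1* had the highest r with *het-6* in this set, where the median gene had 0.11. By r with *vib-1* in this set, *het-6* ranked 65 of 7984, with 0.827% of genes as far from 0. In the 14 libraries of the set with the most *vib-1* (156 to 232 RPKM), *het-6* was at 7.14 to 19.6 RPKM with a median of 14.4. In the 14 with the least *vib-1* (68.9 to 105 RPKM), it was at 3.54 to 9.65 RPKM with a median of 6.71. The relation had r = 0.72 in JW alone (35 libraries), 0.62 in D and FGSC alone (21 libraries, adjusted p = 0.0204, and 0.088 for rho), 0.71 when the 2 farthest libraries were left out and 0.63 after median centring, where *vib-1* was again the first of 7984 genes.

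In the 52 libraries of the lower *het-6* set the relation of *het-6* with *vib-1* was r = 0.28 and rho = 0.21 (permutation p = 0.0474 and 0.14, adjusted p = 0.0934 and 0.239), and r was -0.068 after median centring. The difference between the 2 coefficients was not tested. Each library of the lower set had 1 to 33 *het-6* reads, so counting error limits any relation that could be seen there. The range of *vib-1* in the upper set, 68.9 to 232 RPKM, overlapped that in the lower set, 75.3 to 319 RPKM, and the medians were 134 and 133 RPKM. High *vib-1* was thus also found with low *het-6*: the 13 libraries of the lower set with the most *vib-1* (159 to 319 RPKM) had *het-6* at 0.0917 to 0.789 RPKM.

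Gene *tol* was weakly expressed, with 1.63, 3.82 and 9.71 RPKM as lowest, median and highest in JW strains and 1.56, 3.60 and 5.29 RPKM in D and FGSC strains, and no library had fewer than 36 reads. Its level rose with that of *vib-1* (r = 0.44, rho = 0.36, permutation p = 2e-05 and 0.00012, adjusted p = 0.000193 and 0.00116). The 27 libraries with the most *vib-1* had *tol* at 2.06 to 9.71 RPKM with a median of 4.62, and the 27 with the least had it at 1.56 to 5.83 RPKM with a median of 3.36. In JW alone r was 0.47 (adjusted p = 0.000193), in D and FGSC alone 0.28 (adjusted p = 0.221), without the 2 farthest libraries 0.38 and after median centring 0.30 (adjusted p = 0.0149). By likeness to *tol*, *vib-1* ranked 7 of 7984 genes, while by likeness to *vib-1*, *tol* ranked 1148, and 17.1% of all genes had an r with *vib-1* as far from 0. For *tol*, the first 3 genes were NCU11753 (r = 0.48), NCU03142 (r = 0.48) and *hak-1* (r = 0.45).

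**Figure D4:**
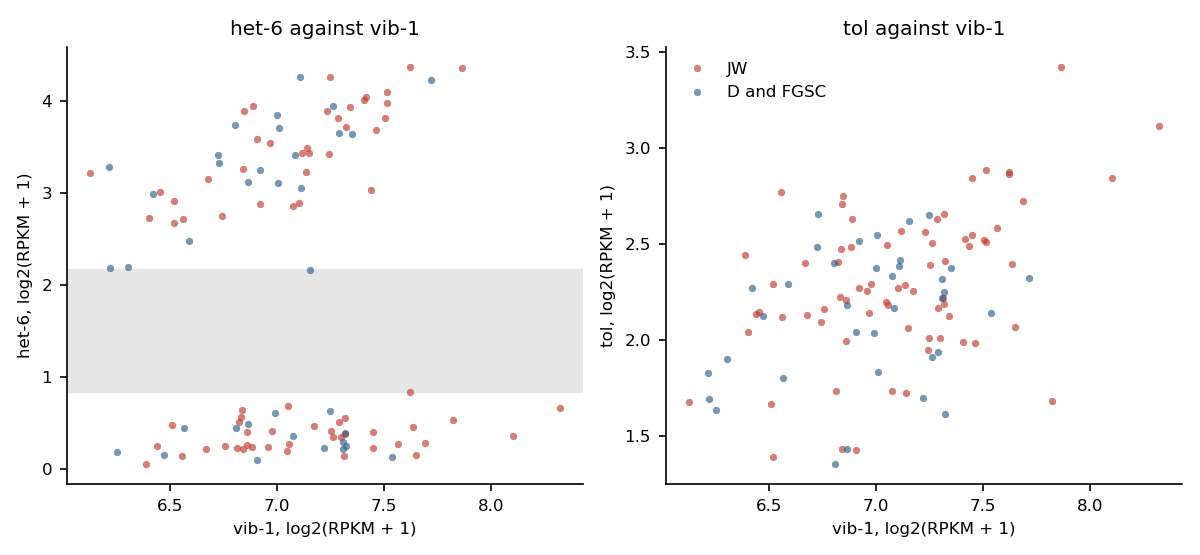
Levels of het-6 and of tol against vib-1 in log2(RPKM + 1), 1 point per library, JW in red and D and FGSC in blue, with the widest step of het-6 shaded. Above the step het-6 rises with vib-1 (r = 0.69, 56 libraries). Below it r is 0.28 over 52 libraries, each with 1 to 33 het-6 reads. The level of tol rises with vib-1 with more scatter (r = 0.44, all libraries).

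NCU07887 was the most abundant and least variable member, with 99.1, 155 and 266 RPKM as lowest, median and highest in JW strains and 94.3, 146 and 282 RPKM in D and FGSC strains. It was related to *vib-1* (r = 0.37, rho = 0.33, permutation p = 8e-05 and 0.00043, adjusted p = 0.00058 and 0.00312), with r of 0.36 in JW alone, 0.42 in D and FGSC alone (adjusted p = 0.0508), 0.35 without the 2 farthest libraries and 0.18 after median centring (adjusted p = 0.245). Of all genes, 26.7% had an r with *vib-1* and 15.7% an r with NCU07887 as far from 0 as this. The genes most like it, NCU03072, NCU06125 and NCU02637, had r of 0.72, 0.66 and 0.66. Those most like *vib-1*, NCU03621, NCU11722 and NCU03613, had r of 0.80, 0.79 and 0.77. Among genes averaging 1 RPKM or more, those most like *het-c* were NCU11220, NCU05691 and NCU09879, with r of 0.43, 0.42 and 0.42. Gene *pin-c*, below that mean, was closer to *het-c* (r = 0.71). Of the 3 neighbours on either side in number order, those of *vib-1* had r of -0.057 to 0.44 with it, the highest being *ham-2*, a gene of hyphal fusion. Those of *tol* had -0.11 to 0.25 and those of NCU07887 -0.37 to 0.42. A weaker relation of *pin-c* with *vib-1* (r = 0.29, rho = 0.28, permutation p = 0.00264 and 0.00348, adjusted p = 0.0153 and 0.0168) had r of 0.28 in JW alone (adjusted p = 0.0626), 0.24 in D and FGSC alone (adjusted p = 0.31) and 0.25 without the 2 farthest libraries (adjusted p = 0.0589), and by r with *vib-1* the gene *pin-c* ranked 2567 of 7984. In all, 6 of the 15 relations over all libraries between genes other than *het-6*, *sec-9* and *plp-1* passed an adjusted p of 0.05 by r, and 2 of the 8 relations within the sets. By rho 5 of the 15 and 1 of the 8 passed. The 6 include *un-24* with *vib-1* (r = 0.24, rho = 0.25, permutation adjusted p = 0.0382 and 0.0319) and NCU07887 with *tol* (r = 0.23, rho = 0.21, permutation adjusted p = 0.0429 and 0.0752). Of all genes, 21.4% had an r with *un-24* and 48.9% an r with *vib-1* as far from 0 as the first of these. For the second, 41.4% did so with NCU07887 and 17.6% with *tol*. The share of all gene pairs that would pass was not computed. By r with *vib-1*, values of the size seen for NCU07887, *pin-c* and *tol* were common among all genes, and are not particular to the members. Fewer genes reached them on the other side. As far from 0 as *vib-1* were 0.0877% of genes by r with *tol* and 3.09% by r with *pin-c*. Another 6 relations, of *plp-1* with single genes over all libraries, are counted in the adjustment but not given, since the libraries fall into 2 clusters at *plp-1*. By r, 3 of these 6 passed. Members had r of -0.29 to 0.32 with the log2 library total and of -0.013 to 0.32 with the log2 sum of the conidial markers. The part of depth and conidiation in these relations was tested only for depth, by residuals from the log2 total.

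The names of the strains allow a comparison of the JW strains with the D and FGSC strains. Of the 7 members tested, 0 passed, by limma on log2(RPKM + 1) as by voom on the recovered reads. The comparison used limma on log2(RPKM + 1) over all 7985 genes with Benjamini-Hochberg adjustment, in which 179 genes (2.24%) passed. Of these, 93 (1.16%) had the higher level in JW and 86 (1.08%) the lower. Before adjustment 1513 genes (18.9%) had a p under 0.05, among them the 2 members *vib-1* and *tol*. Gene *vib-1* averaged 144 ± 44.8 RPKM in JW and 126 ± 32.2 RPKM in D and FGSC (SD, n = 72 and 36), a difference of 0.17 log2 units (95% interval 0.0017 to 0.33, limma adjusted p = 0.258). Gene *tol* averaged 4.09 ± 1.41 RPKM in JW and 3.504 ± 1.02 RPKM in D and FGSC, a difference of 0.16 (0.01 to 0.32, limma adjusted p = 0.224). The difference was -0.42 for *plp-1* (-0.92 to 0.08), -0.41 for *sec-9* (-1.03 to 0.21), -0.17 for *het-6* (-0.81 to 0.47), -0.14 for *un-24* (-0.29 to 0.0048), -0.013 for *het-c* (-0.19 to 0.17) and 0.017 for NCU07887 (-0.11 to 0.14), with adjusted p of 0.28 to 0.954. Library totals also differed between the series, with medians of 19835136 reads in JW and 12258870 in D and FGSC. With the log2 total as a covariate the difference was -0.15 for *plp-1*, -0.17 for *sec-9*, -0.061 for *het-6* and -0.061 for *un-24*, and with voom it was -1.26 for *sec-9* and -0.099 for *het-6*. Each series holds both sets of *sec-9*, *plp-1* and *het-6*, whose intervals were the widest of the 8 genes tested. The conidial markers summed to medians of 2320 RPKM in JW and 4518 RPKM in D and FGSC. By limma their differences were -1.05 for *eas*, -0.71 for *con-6* and 0.059 for *con-10* (adjusted p = 0.131, 0.263 and 0.958). The hyphal markers *so* and *act* summed to medians of 2031 and 2032 RPKM. The part of culture state in the series differences was not tested. Gene *pin-c* was below the minimum for the test, and without that minimum its difference was 0.20 (-0.09 to 0.48, limma adjusted p = 0.502). The median difference of the 7 members was -0.013, and that of all genes tested -0.0030.

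**Figure D5:**
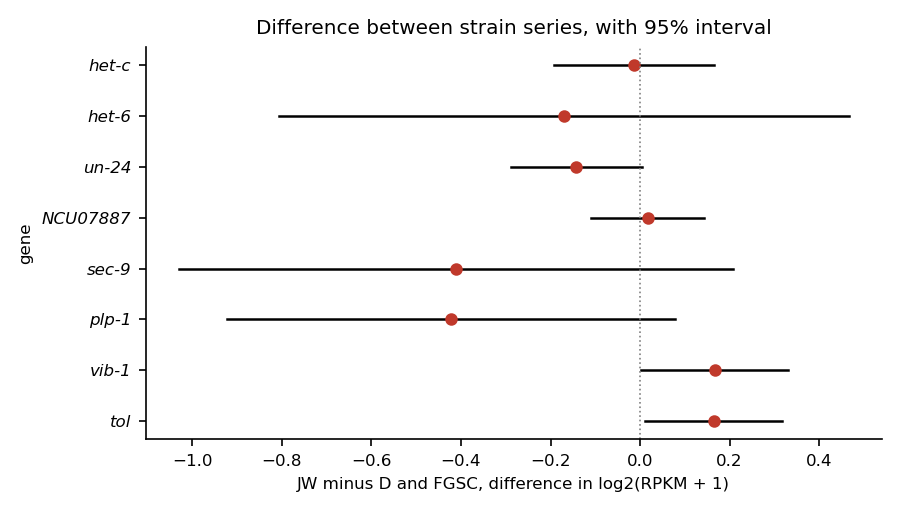
Difference in log2(RPKM + 1) between 72 JW and 36 D and FGSC libraries, as JW minus D and FGSC, for the 7 members tested and un-24. Points are the limma estimates and lines their 95% intervals, and no gene passed the adjusted threshold.

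Genes of the same processes were compared in the same way. The other transcription factors of the *vib-1* family, *fsd-1* and NCU04729, differed by -0.18 (95% interval -0.33 to -0.04, limma adjusted p = 0.15) and -0.15 (-0.27 to -0.03, limma adjusted p = 0.159). A list of 8 other incompatibility genes, at the *rcd-1*, *cwr*, *doc* and mating-type loci, held 6 genes of at least 1 RPKM, and 0 of these passed the test for strain series. Before adjustment the count at a p under 0.05 was also 0. Of the 8 genes, 4 had a separation of at least 1 log2 unit, all among the 6 of at least 1 RPKM. Over all genes of at least 1 RPKM the share was 0.589%. The list was chosen with earlier results of these data known, so the count is a description. The 4 genes were NCU05712 (*rcd-1*), NCU01381 of the *cwr* locus and both *doc* genes, NCU07191 and NCU07192, and are named after their values were seen. The 2 *doc* genes had steps of 2.44 and 2.36 log2 units and placed every library on the same side, 19 above and 89 below. At *rcd-1* 62 libraries were above and 46 below, and at NCU01381 27 above and 81 below.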

How the data were processed

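The deposited table holds 1 value in RPKM per gene and strain, which the authors scaled by gene length and library total. Per the labels, mycelia were 16 h old and the libraries came from 1 TruSeq preparation of polyadenylated RNA each. The submitters' processing notes name Bowtie 0.12.2. For the step that counted reads, the tool, annotation and reference sequence were not given in the sources used here. Each column carries the name of its strain, and 0 columns were left unused. Reads were recovered from the steps between low values. They came out whole, within 0.001 reads, for all 9696 genes above 0, with gene lengths that were multiples of 3 in 99.9% of genes, so that lengths are coding lengths. Limits at 0 cover counting error only, and at the lowest total 1 library had 4174767 reads.

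The strain series is the one grouping the labels give. The JW libraries were compared with the D and FGSC libraries by limma 3.58.1 (R 4.3.3) with a trend, over genes averaging 1 RPKM or more, on log2(RPKM + 1) at an adjusted p of 0.05. The fit was tested on simulated data first. RPKM are not counts, so limma's voom on the recovered reads was an alternative only. With 1 culture per strain, p-values cover the variation of strain, culture and library jointly. Correlations used 100000 two-sided permutations, with Benjamini-Hochberg adjustment over 29 relations, or over 8 for residuals from the log2 total fitted within each set. The remaining steps ran in Python 3.11.15 (pandas 2.3.3, numpy 2.4.6, scipy 1.17.1, figures with matplotlib 3.10.9).

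The members and lists were chosen with earlier results of these data known. Genes are named by a rule: the 8 members and *un-24*, the 3 neighbours of each on either side, and listed genes that passed the series test. Also named are the 3 genes of highest r with each, among genes averaging 1 RPKM or more. Symbols are from RefSeq (assembly NC12), or from the list of members for *sec-9* and *plp-1*. No coordinates or sequences are given. A planned list of genes with a heterokaryon incompatibility product was not run, because the gene table used here has no product names. Of the planned markers, *con-8* and *hex-1* were not analysed here.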

Additional observations from a re-analysis of the deposited data

How the results depend on the processing

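Under all 12 alternatives to the series comparison 0 members passed. The share of genes called was 2.24%, and moved to 4.13% with quantile normalization, 3.62% with each of 112 columns as a library, 3.83% without strains 2489, JW168, JW5 and JW7, 1.47% with voom on recovered reads and 0.363% (29 genes) with the log2 library total as a covariate. The split of calls (93 higher, 86 lower in JW) became 127 and 203 with quantile normalization, 36 and 81 with voom, 55 and 105 against the FGSC columns alone, 7 and 22 with the total as a covariate, and 194 and 112 without those 4 strains. The difference of *het-c* turned to 0.055 with the library total as a covariate, 0.010 without those 4 strains and 0.0034 with voom. That of NCU07887 turned to -0.011 with quantile normalization, -0.0029 with 112 columns, -0.073 with the total as a covariate and -0.039 against the FGSC columns alone. Both genes had adjusted p of at least 0.714 throughout.

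A pseudocount of 5 RPKM compresses low values, and 0 members then had a step of 1 log2 unit (*het-6* 0.55, *sec-9* 0.44), against 25 genes overall. The same-side count of *sec-9* and *plp-1* was complete in every setting. The 11 of 29 relations passing by r, 3 of them with *plp-1* over all libraries, became 5 in JW alone and 5 in D and FGSC alone. They became 4 without the 2 farthest libraries and 3 after median centring. By rho 8 of 29 passed, and in these 4 settings 5, 3, 6 and 2. *het-6* with *un-24* in the upper set fell short of the threshold in JW alone (0.33), D and FGSC alone (0.41), without the 2 farthest libraries (0.30) and after centring (0.17), and passed in the other 4, reaching 0.44 with residuals from the total. *sec-9* with *plp-1* in the upper set turned to -0.095 after centring and reached 0.60 with residuals from the library total fitted over both sets, but 0.23 (adjusted p = 0.144, rho 0.34 with 0.0477) with residuals fitted within each set, an alternative added after the data were seen. In the lower set it turned to 0.056 in JW alone, 0.046 without the 2 farthest libraries and 0.22 with residuals over both sets. *het-6* with *vib-1* in the lower set turned to -0.068 after centring. *het-c* with *pin-c* (0.70 to 0.75) and *het-6* with *vib-1* in the upper set (0.62 to 0.72) passed in all. No paired analysis was possible because the labels give no replicate numbers. The steps of *pin-c* and *sec-9* near 0 reads are limited by depth.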

Other observations

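Strain 2489, the laboratory strain whose genome serves as the reference of the species, stood in the upper set of *het-6*, *sec-9* and *plp-1*, with 7.63, 8.22 and 135 RPKM. It also stood above the step in all 4 listed genes with a separation at the *rcd-1*, *cwr* and *doc* loci. Over the 47 genes with a separation it was above the step in 29, while the other libraries were above it in 10 to 30 genes with a median of 16. Of these libraries, 1 was above the step in more genes. Its own *het-c* and *pin-c* were at 35.9 and 1.61 RPKM.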
